A study of Mus musculus with 6 samples.

Results

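The genes described here are 50 cell cycle genes, 19 of S phase and 31 of G2 and M phase, out of 31053 genes in the deposited matrices. They were taken as a fixed list of known cell cycle genes that was present in all 6 matrices, a rule that uses no measured value, although the list was drawn up with earlier results of these data known. All 50 had at least 1 UMI (unique molecular identifier, a tag that marks 1 captured transcript) in each library.

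S phase genes encode the machinery that copies DNA: the helicase that opens the double strand, the sliding clamp that holds the polymerase, and the enzymes that supply nucleotides. G2/M genes encode the cyclins, kinases, spindle motors and kinetochore proteins that condense and separate the chromosomes. Bone marrow cultures hold dividing myeloid progenitors, while mature dendritic cells (DCs) and neutrophils are known as cells that no longer divide, so these transcripts mark the dividing cells among them.

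The study asked what loss of Ndrg2 does to DCs and to wounds that receive them, and gave 1 droplet library of single cells per condition. Bone marrow-derived DCs of wild-type C57BL/6J mice were left untreated, were stimulated with vitamin D3 (VD3, 1e-06 M for 24 h from day 7 of culture), or were nucleofected with Cas9 protein and 3 guides against Ndrg2 (Ndrg2-KO). Untreated DCs were not nucleofected, so nucleofection and the knockout cannot be told apart. Wounds of 6-week-old mice received hydrogels with control DCs, with Ndrg2-KO DCs or without cells, and were explanted on day 10. The study wounded wild-type C57BL/6J and diabetic db/db mice, and it refers these day 10 explants to the healing curves of its wild-type mice. The control DCs are untreated per the labels, and nucleofected with 3 non-targeting guides per the study's methods, which name 5 mice per wound group. How these mice were combined in a library is not given in the sources used here. The design text of the series speaks of GFP+ cells from parabiome wounds, which the sample labels do not mention, and the labels were followed here.

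Ndrg2 was counted at 4.62 CPM (UMIs per 1000000 UMIs of the library) in DCs left untreated, 1.42 CPM with VD3 and 0.884 CPM with Ndrg2-KO, so the targeted gene was lowest in the Ndrg2-KO library and also low with VD3. Where the counted 3′ ends lie relative to the edited sites was not examined here, so this level is no measure of editing. The kept cells numbered 7257 to 8825 in the DC libraries, with median depths of 12089 to 16316 UMIs, and 1948 to 5681 in the wound libraries, with median depths of 4415 to 10795 UMIs. Between 1 and 19 barcodes were shared by any pair of libraries. Itgax and H2-Ab1, which mark DCs, were at 77.8 to 263 CPM and 487 to 908 CPM in the DC libraries. Cells with under 1% mitochondrial UMIs made up 10.2% of untreated, 16.5% of VD3 stimulated and 2.75% of Ndrg2-KO DCs, and these cells held at most 5.05% of the S and 5% of the G2/M UMIs of a library. Each condition had 1 library, so conditions could not be tested against each other and differences have no replicate check. All intervals are exact 95% intervals and cover counting error only. A gene was called higher or lower when it differed at least 1.5-fold among genes with at least 50 UMIs in the 2 libraries together, and the share of all such genes that were called is given as the background.

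The promoters of both sets were searched for short motifs known from cell cycle genes, and a few stretches are shown because the sets behaved differently below. In RefSeq promoter windows of 300 bases (250 before and 50 after the start, build GRCm38.p6), 16 of the 19 S members and 27 of the 31 G2/M members were found. An E2F motif (TTTCCCGC, TTTCGCGC, TTTGCCGC or TTTGGCGC, either strand) was in the windows of 8 S members (50%) and 1 G2/M member (3.70%), and in 2.60% of all genes with a window. The cell cycle homology region (TTTGAA or TTCGAA, either strand) was in the windows of 2 S members (12.5%) and 21 G2/M members (77.8%), and in 21.7% of all genes. A CCAAT box (either strand) was found for 11 S members (68.8%), 24 G2/M members (88.9%) and 41.1% of all genes. Within 50 bases of the start, a limit chosen after the matches were seen, the homology region was found for 0 S and 19 G2/M members (70.4%), and for 6.12% of all genes. The stretches below show, for members named later, the match nearest upstream of the RefSeq start, in the direction of the gene and with the motif in capitals. RefSeq starts can differ from the gene positions given below, which are those of GENCODE, and the marked motifs of Hells, Cdk1 and Ube2c lie within their GENCODE genes. They lie at chr1:128359734-128359763 (minus strand) for Mcm6, chr19:38930917-38930946 (plus) for Hells, chr10:69352913-69352942 (minus) for Cdk1, chr4:118437344-118437373 (minus) for Cdc20, chr2:164769888-164769917 (plus) for Ube2c, chr11:99024195-99024224 (minus) for Top2a and chr8:57511801-57511830 (plus) for Hmgb2.
Mcm6: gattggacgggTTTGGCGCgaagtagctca
Hells: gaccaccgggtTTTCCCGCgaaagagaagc
Cdk1: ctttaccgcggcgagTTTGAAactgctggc
Cdc20: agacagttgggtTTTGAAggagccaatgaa
Ube2c: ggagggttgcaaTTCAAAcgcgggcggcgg
Top2a: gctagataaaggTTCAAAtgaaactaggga
Hmgb2: ggactctccgggTTTGAAtaatcctccaca
The first 2 hold the E2F motif and the other 5 the homology region, which in Ube2c and Top2a reads on the opposite strand. A match is a description of these letters and not a site of binding.

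Untreated DCs had the highest summed level of both sets. The S members summed to 1006 CPM (95% interval 1001 to 1011) without treatment, 655 CPM (651 to 660) with VD3 and 609 CPM (605 to 613) with Ndrg2-KO. The G2/M members summed to 3035 CPM (3026 to 3045), 2700 CPM (2691 to 2710) and 1910 CPM (1902 to 1917). As log2 ratios against untreated DCs, the S sum was -0.62 with VD3 and -0.73 with Ndrg2-KO, and the G2/M sum was -0.17 with VD3 and -0.67 with Ndrg2-KO. VD3 stimulated DCs were thus low in the S set and nearer to untreated DCs in the G2/M set, while Ndrg2-KO DCs were low in both. This contrast rested on the limit of 10% mitochondrial UMIs: under 5% the G2/M sum was -0.34 with VD3 and -0.42 with Ndrg2-KO, and in Ndrg2-KO against VD3 stimulated DCs it was -0.080, beside -0.50 at 10%. When every cell weighed the same, the S sum was -0.31 with VD3 and -0.64 with Ndrg2-KO. The median of all genes tested was -0.08 and -0.06 in the same comparisons, which share the untreated library. In such sums, fewer cells that express a gene and less RNA of it per cell cannot be told apart.

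**Figure D1:**
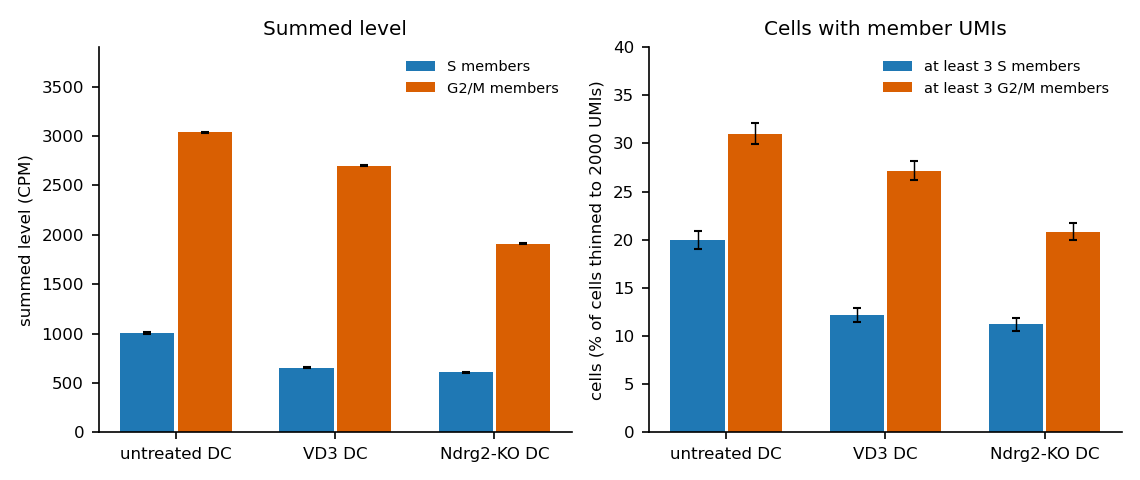
Summed CPM of the S and G2/M members (left) and share of cells in which at least 3 members of a set were detected after thinning to 2000 UMIs (right) in the 3 DC libraries, with exact 95% counting intervals as error bars. The S bars are near each other in VD3 and Ndrg2-KO DCs, and the G2/M bars fall from untreated (31% of cells) over VD3 (27.1%) to Ndrg2-KO DCs (20.8%).

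Of the 19 S members, 14 were at least 1.5-fold lower in VD3 stimulated than in untreated DCs and 0 were higher, against 16% of all genes lower and 9.72% higher. Of the 31 G2/M members, 0 were lower and 1 was higher, Cenpa. In Ndrg2-KO against untreated DCs, 13 S members and 23 G2/M members were lower and 0 of either set were higher, against 19.1% of all genes lower and 18.1% higher. In Ndrg2-KO against VD3 stimulated DCs, 1 S member and 15 G2/M members were lower and 1 S member (Pcna) was higher, against 17.8% of all genes lower and 21.7% higher. These counts moved with the limit on mitochondrial UMIs. The limit of 5% instead of 10% left out most DCs, since the median cell had 5.30% to 6.6%. Under 5%, 29 members were lower with VD3 (14 at 10%) and 0 were higher, so Cenpa was not called. At that limit 21 were lower with Ndrg2-KO (36 at 10%), and 3 in Ndrg2-KO against VD3 stimulated DCs (16 at 10%). At 2-fold, 0 members were higher and 2 lower with VD3 (4.18% and 7.44% of all genes), 13 were lower with Ndrg2-KO (9.28% lower and 10.2% higher), and 6 were lower in Ndrg2-KO against VD3 stimulated DCs (9.21% lower and 13% higher). When every cell weighed the same, 3 members were lower with VD3 and the G2/M sum of VD3 stimulated against untreated DCs turned to 0.10.

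**Figure D2:**
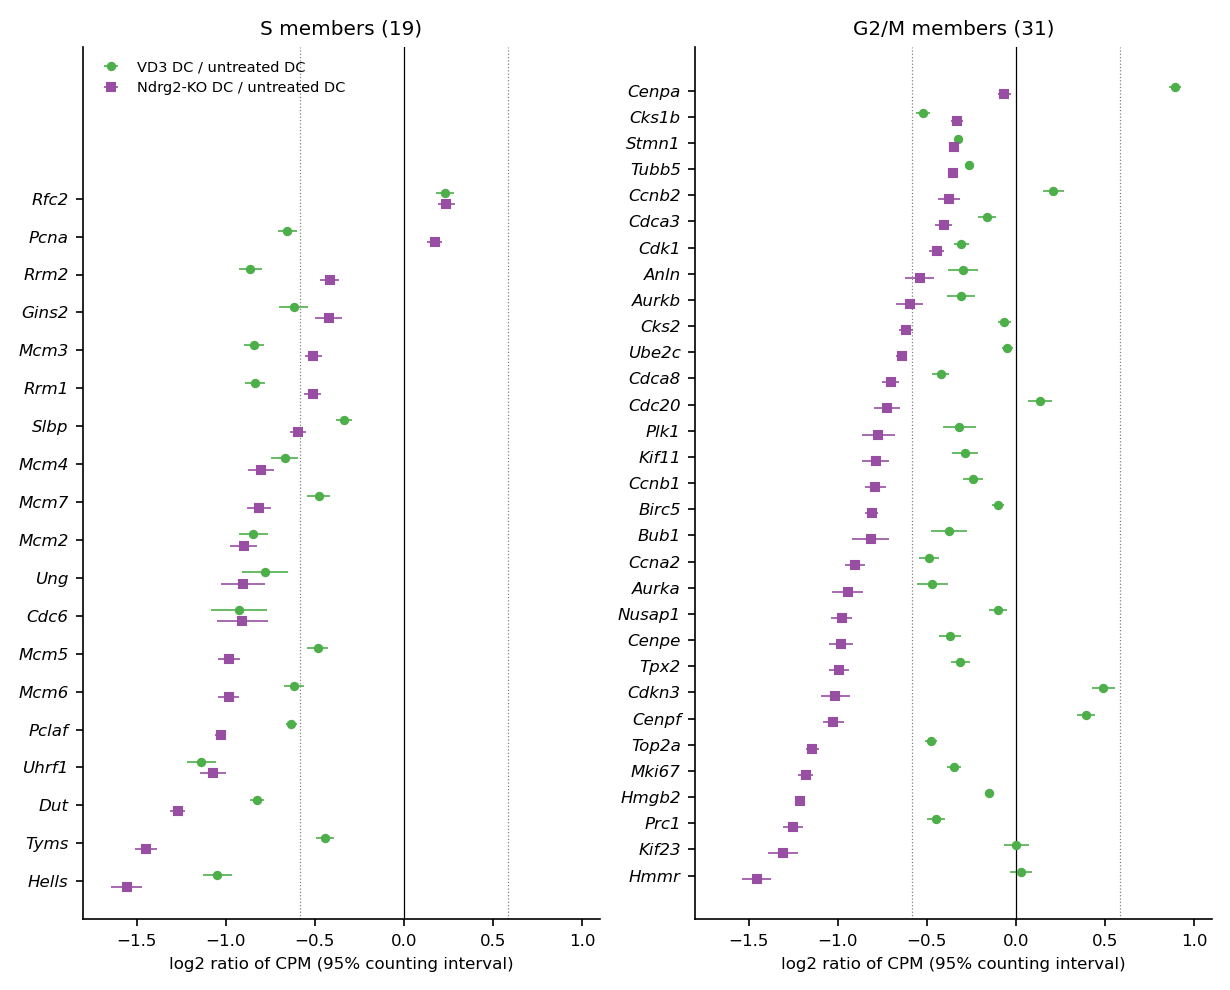
Log2 ratio of CPM of each member in VD3 (circles) and Ndrg2-KO DCs (squares) against untreated DCs, S members on the left and G2/M members on the right, ordered by the Ndrg2-KO value. Bars are exact 95% counting intervals and dotted lines mark 1.5-fold. Circles of the S members lie mostly left of the dotted line, while circles of the G2/M members lie between the lines except Cenpa (0.89), and squares reach -1.56 (Hells) and -1.46 (Hmmr).

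Among the S members, the replicative helicase (Mcm2 to Mcm7, Gins2 of the GINS complex, and the loader Cdc6) was lower for 6 of 8 genes with VD3 and for 6 of 8 with Ndrg2-KO, with median log2 ratios of -0.64 and -0.86. Mcm2, a core subunit, was at 28.4 CPM (untreated), 15.8 CPM (VD3) and 15.2 CPM (Ndrg2-KO). Mcm6 was at 54.2, 35.4 and 27.4 CPM in the same order, and Cdc6 at 8.15, 4.29 and 4.34 CPM. Both treated libraries were thus below the untreated one for each of these 3 genes. Mcm3 (58.8, 32.8 and 41.4 CPM) passed 1.5-fold with VD3 alone, and Mcm5 (45.7, 32.7 and 23.1 CPM) with Ndrg2-KO alone.

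Of the 4 enzymes of nucleotide supply, 3 were lower with VD3 and 2 with Ndrg2-KO. Tyms, which makes thymidylate, was at 60.0 CPM (untreated), 44.2 CPM (VD3) and 22 CPM (Ndrg2-KO), a log2 ratio of -0.44 (-0.49 to -0.39) with VD3 and -1.45 (-1.51 to -1.39) with Ndrg2-KO. The ribonucleotide reductase subunits had the other order, with Rrm1 at 63.9, 35.8 and 44.8 CPM and Rrm2 at 43.6, 24 and 32.7 CPM. Dut, which removes dUTP, was at 119, 67.3 and 49.4 CPM and was called lower in both comparisons. Tyms was the only S member called lower in Ndrg2-KO against VD3 stimulated DCs.

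The clamp and its loader stood apart from the other S members. Pcna, the sliding clamp, was at 62.7 CPM (untreated), 39.9 CPM (VD3) and 70.8 CPM (Ndrg2-KO), so it was lower with VD3 (-0.65, -0.71 to -0.60) and not with Ndrg2-KO (0.17, 0.13 to 0.22). Rfc2, a subunit of the clamp loader, was at 46.7, 54.8 and 55.1 CPM and was within 1.5-fold in each comparison. Pclaf, a Pcna-binding protein, was at 178, 115 and 87.1 CPM, with log2 ratios of -0.63 and -1.03 against untreated DCs. Pcna and Rfc2 were the 2 S members above 0 with Ndrg2-KO.

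Genes of chromatin, repair and histone mRNA were lower with Ndrg2-KO for 4 of 4 and with VD3 for 3 of 4. Hells (ENSMUSG00000025001, chromosome 19 from 38930915 to 38971051 in GRCm38), a chromatin remodeler, was at 31.8 CPM (untreated), 15.4 CPM (VD3) and 10.8 CPM (Ndrg2-KO), and its log2 ratio of -1.56 (-1.64 to -1.47) with Ndrg2-KO was the lowest of the 50. Uhrf1, which carries DNA methylation through replication, was at 31.9, 14.5 and 15.2 CPM, and its log2 ratio of -1.14 (-1.22 to -1.05) was the lowest with VD3. Ung, which removes uracil from DNA, was at 10.8, 6.31 and 5.79 CPM. Slbp, which binds histone mRNA, was at 70.7, 56.0 and 46.8 CPM and was called lower with Ndrg2-KO only.

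Among the G2/M members, cyclins, Cdk1 and their partners were within 1.5-fold for all 8 genes with VD3, and 4 of 8 were lower with Ndrg2-KO. Cdk1, the mitotic kinase, was at 76.3 CPM (untreated), 61.7 CPM (VD3) and 56.1 CPM (Ndrg2-KO), within 1.5-fold in each comparison. Ccna2 was at 50.4, 35.9 and 27.0 CPM and Ccnb1 at 44.1, 37.2 and 25.5 CPM, and both cyclins were lower with Ndrg2-KO. Cdkn3, a phosphatase of Cdk1, was at 27.0, 37.9 and 13.4 CPM, so it was above untreated DCs with VD3 by 0.49 (0.43 to 0.55) on the log2 scale and below with Ndrg2-KO (-1.01, -1.10 to -0.93). Cks1b, a small Cdk-binding protein, was at 115, 80.2 and 91.4 CPM and was within 1.5-fold throughout.

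The kinases Aurka, Aurkb, Plk1 and Bub1 were lower with Ndrg2-KO for 4 of 4 and with VD3 for 0 of 4. Aurka, which matures the spindle poles, was at 21.7, 15.7 and 11.3 CPM in DCs without treatment, with VD3 and with Ndrg2-KO, and Plk1 at 17.7, 14.2 and 10.4 CPM. Their passenger complex partners Birc5 (122, 114 and 69.9 CPM) and Cdca8 (67.5, 50.4 and 41.4 CPM) were likewise lower with Ndrg2-KO only. The activator Cdc20 of the anaphase-promoting complex was at 27.9, 30.7 and 16.9 CPM and its ubiquitin carrier Ube2c at 140, 135 and 89.5 CPM. All of these genes had their lowest level in Ndrg2-KO DCs.

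The 3 centromere genes did not move together with VD3. Cenpa (ENSMUSG00000029177, chromosome 5 from 30666777 to 30674830), the histone H3 variant of the centromere, was at 93.7 CPM (untreated), 174 CPM (VD3) and 89.5 CPM (Ndrg2-KO), a log2 ratio of 0.89 (0.86 to 0.93) with VD3. Cenpf, a kinetochore protein, was at 48.2, 63.3 and 23.7 CPM, and the kinetochore motor Cenpe at 39.5, 30.5 and 20.0 CPM. In Ndrg2-KO against VD3 stimulated DCs all 3 were lower, with log2 ratios of -0.96, -1.42 and -0.61.

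Spindle and cytokinesis genes were lower with Ndrg2-KO for 6 of 7 and with VD3 for 0 of 7. Hmmr (ENSMUSG00000020330, chromosome 11 from 40701395 to 40733422), a microtubule-binding protein of the spindle, was at 32.3 CPM (untreated), 33.0 CPM (VD3) and 11.8 CPM (Ndrg2-KO), a log2 ratio of -1.46 (-1.54 to -1.37) with Ndrg2-KO. Kif23, a motor of the midbody, was at 27.5, 27.5 and 11.1 CPM, and Prc1, which bundles midzone microtubules, at 57.2, 41.9 and 24 CPM. Hmmr and Kif23 had the same level in untreated and VD3 stimulated DCs within counting error.

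Of the chromosome structure genes, Mki67, which coats mitotic chromosomes, was at 109, 85.5 and 48.0 CPM in DCs without treatment, with VD3 and with Ndrg2-KO. Top2a, which untangles DNA, was at 142, 102 and 64.5 CPM, and Hmgb2, a DNA-bending protein, at 477, 429 and 206 CPM. These 3 were lower with Ndrg2-KO against both other libraries. Tubb5, a beta-tubulin, was at 673, 561 and 526 CPM and Stmn1, which destabilizes microtubules, at 248, 198 and 195 CPM, within 1.5-fold in each comparison. Stmn1, Tubb5 and Hmgb2 held 44.0% to 48.5% of the G2/M UMIs of a DC library. Without them the G2/M sum was 1637, 1513 and 983 CPM, and its log2 ratio against untreated DCs was -0.11 with VD3 and -0.74 with Ndrg2-KO.

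At equal depth the same libraries were compared by cells. Each cell with at least 2000 UMIs was thinned to 2000 UMIs, which left 6785 untreated, 7676 VD3 stimulated and 7835 Ndrg2-KO DCs. At least 3 S members were detected in 1353 cells without treatment (19.9%, 19 to 20.9), 937 cells with VD3 (12.2%, 11.5 to 13.0) and 878 cells with Ndrg2-KO (11.2%, 10.5 to 11.9). At least 3 G2/M members were detected in 2103 (31%, 29.9 to 32.1), 2084 (27.1%, 26.2 to 28.2) and 1631 cells (20.8%, 19.9 to 21.7) in the same order. Without thinning the G2/M shares were 70.5%, 69.4% and 78.2%, in another order. The limit of 3 genes cut through a continuous range, with 969, 1275 and 1327 cells at exactly 2 G2/M members and 326, 419 and 432 cells at exactly 3.

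The overlap of the sets also differed. Of the cells with 3 or more G2/M members, 56.6% (54.4 to 58.7) without treatment, 36.6% (34.5 to 38.7) with VD3 and 42.1% (39.7 to 44.6) with Ndrg2-KO also held 3 or more S members. Cells with at least 3 G2/M and fewer than 3 S members numbered 913 (13.5%) in untreated, 1321 (17.2%) in VD3 stimulated and 944 (12.0%) in Ndrg2-KO DCs. Cells with at least 3 S and fewer than 3 G2/M members were 163, 174 and 191, or 2.27% to 2.44% of the cells. The share with at least 3 G2/M and fewer than 3 S members was thus largest with VD3. G2/M-positive cells were deeper before thinning than cells with fewer than 3 of either set, with medians of 22914 against 14707 UMIs in untreated DCs, and 10.6% of them against 4.14% were among the highest doublet scores. Of the G2/M-positive cells, 11.1%, 17.9% and 1.59% had under 1% mitochondrial UMIs in untreated, VD3 stimulated and Ndrg2-KO DCs. Of the cells with 3 or more of both sets, 11.8%, 22.7% and 0.873% did. The part of these cells in the overlap was not tested.

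These cells lay mostly outside the mature DCs. Among cells with at least 3 of 8 mature DC markers (45.4% of untreated, 51.7% of VD3 stimulated and 34.2% of Ndrg2-KO DCs), 10.3%, 10.2% and 9.18% held 3 or more G2/M members, and 3.96%, 2.72% and 3.58% held 3 or more S members. Among the remaining cells the G2/M shares were 48.2% (46.6 to 49.8), 45.3% (43.7 to 46.9) and 26.9% (25.7 to 28.1), and the S shares 33.2%, 22.4% and 15.2%. The G2/M shares thus lay within 9.18% to 10.3% in cells with mature markers and differed more widely in the rest. Granulocyte-monocyte progenitor markers (at least 3 of 7, such as Mpo and Elane) were found in 85 untreated and 43 VD3 stimulated cells, of which 82 and 43 held 3 or more G2/M members. In Ndrg2-KO DCs 0 of 7835 cells held them, which by the limit of 3 counts allows a share of up to 0.0383% of cells with 3 such markers detected at this depth. The part of these cells in the differences between libraries was not tested. S100a8, a neutrophil gene, was at 3044, 3561 and 216 CPM, not in the order of the progenitor-marker cells. Cells with at least 3 neutrophil markers, among them S100a8, numbered 263, 328 and 36, and 43.3%, 42.4% and 30.6% held 3 or more G2/M members. Cells with at least 3 premature DC markers made up 39.7%, 10.1% and 73.2% of the cells. Of these, 49.4%, 38.2% and 25.7% held 3 or more G2/M members.

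Genes outside the lists that were highest in G2/M-positive against G2/M-negative untreated DCs were of 2 kinds. Hist1h1b (a linker histone), Rad51ap1 (recombination), Spc24 (kinetochore) and Asf1b (a histone chaperone) belong to dividing cells, with 335, 209, 436 and 273 UMIs in the 2103 positive cells and 1 to 6 UMIs in the 1348 cells with no G2/M member. Prtn3, Elane, Ctsg, Ms4a3, Prg2 and Stfa1 are genes of granulocyte precursors, with 737, 249, 267, 590, 235 and 285 UMIs in the positive cells. In Ndrg2-KO DCs, Elane, Ctsg and Prg2 had 0 UMIs in the positive cells, while Spc24 had 191 and Asf1b 221. Prtn3 had 43 UMIs in the 1631 positive and 23 in the 1987 negative Ndrg2-KO cells. In VD3 stimulated DCs, Prtn3 had 416 and Elane 120 UMIs in the positive cells.

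Clusters made without the cell cycle genes put the members' UMIs into few cells of each library. A cluster of 1662 untreated cells, 22.9% of that library, held 76.6% of its G2/M UMIs, at 1867 S CPM and 5653 G2/M CPM. In VD3 stimulated DCs, 1873 cells (21.2%) led by Gdf15, Cyp24a1 and Ms4a7 held 54.3%, at 1088 S CPM and 4627 G2/M CPM. In Ndrg2-KO DCs, 918 cells (11.5%) held 59.9%, at 1898 S CPM and 6727 G2/M CPM. These clusters were each almost entirely of 1 library, so the cluster and the library cannot be told apart. A further cluster of 2125 cells with a median of 2024 UMIs and 0.241% mitochondrial UMIs, 1455 of them VD3 stimulated, stood at 1506 S CPM and 5750 G2/M CPM. Without cells under 1% mitochondrial UMIs, an alternative chosen after the data were seen, the G2/M sum of VD3 stimulated against untreated DCs was -0.18.

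Members differed in how far their UMIs lay in cells that held other members. Whether such cells divide was not tested. In untreated DCs, cells with at least 3 members other than the gene itself held 96.1% of the thinned Mki67 UMIs, 98.0% of Pclaf and 97.8% of Hmmr, and made up 41.3% to 41.5% of the cells for these genes. Such cells held 53.4% of Tubb5, 52.8% of Rfc2 and 73.9% of Pcna, and were 34.9%, 40.3% and 40.8% of the cells. In Ndrg2-KO DCs they held 46.2%, 42.8% and 50.9% for these 3 genes and were 24.8%, 30.4% and 30.5% of the cells. Per cell, their level was thus 2.13-fold (Tubb5), 1.66-fold (Rfc2) and 4.12-fold (Pcna) that of the other cells in untreated DCs and 2.60-fold, 1.72-fold and 2.37-fold in Ndrg2-KO DCs, lower with Ndrg2-KO for Pcna and not for the other two. The 2 S members above untreated DCs with Ndrg2-KO, Pcna and Rfc2, were thus among those found widely in cells with fewer than 3 other members. So was Slbp (67.6% in untreated and 52.4% in Ndrg2-KO DCs), which was lower with Ndrg2-KO.

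Other genes of the cycle were followed from lists. Of 60 further cell cycle genes, 22 were lower and 3 higher with VD3 (median log2 ratio -0.42), and 35 were lower and 1 higher with Ndrg2-KO (-0.66), beside 16% of all genes lower and 9.72% higher with VD3 and 19.1% lower and 18.1% higher with Ndrg2-KO. Of the G1 cyclins, Ccnd1 and Ccnd3 were lower in both, with Ccnd1 at 46.8 CPM (untreated), 10.9 CPM (VD3) and 16.5 CPM (Ndrg2-KO) and Ccnd3 at 103, 48.9 and 36.5 CPM. Ccnd2 was higher with VD3, at 216, 382 and 170 CPM. Mybl2, a transcription factor of late S phase, was at 14.2, 7.14 and 4.59 CPM, and the nuclear lamina gene Lmnb1 at 55.2, 33.0 and 18.5 CPM.

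Of 14 Cdk inhibitors and antiproliferative genes, 5 were higher and 2 lower with VD3, and 3 were higher and 3 lower with Ndrg2-KO. The counts with Ndrg2-KO and the count lower with VD3 were near those shares of all genes. Tob1 was at 26.8 CPM (untreated), 75.4 CPM (VD3) and 28.9 CPM (Ndrg2-KO), Btg2 at 74.1, 148 and 58.3 CPM, and Cdkn1b, which encodes p27, at 21.6, 39.2 and 26.9 CPM. These 3 passed 1.5-fold with VD3 and not with Ndrg2-KO. Cdkn2a and Cdkn2b, which inhibit Cdk4 and Cdk6, moved in opposite directions: Cdkn2a was at 6.09, 3.48 and 12.0 CPM and Cdkn2b at 18.6, 33.1 and 8.10 CPM. Cdkn1a, which encodes p21, was at 583, 392 and 293 CPM and was called lower with Ndrg2-KO.

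In wounds both sets summed to less than in cultured DCs. The S members summed to 303 CPM with control DCs, 298 CPM with Ndrg2-KO DCs and 320 CPM with blank hydrogels, and the G2/M members to 663, 852 and 841 CPM. The levels of Cks2, Hmgb2, Pcna and Slbp overlapped between wounds and DCs, with Pcna at 60.4 to 68.2 CPM in wounds. The cell types of a wound library differ strongly in share, so levels were taken within classes named from marker genes. Keratinocyte-like cells had an S sum of 1055 CPM and a G2/M sum of 2591 CPM over the 3 wounds together, and 14 of 70 cells (20.0%, 11.4 to 31.3) held at least 3 G2/M members after thinning to 1000 UMIs. T cell-like cells were at 804 S CPM and 2652 G2/M CPM with 52 of 490 cells (10.6%, 8.03 to 13.7), and NK cell-like cells at 876 and 2112 CPM with 7 of 86 cells (8.14%, 3.34 to 16.1). The NK cell-like G2/M sum was 693, 1525 and 3510 CPM in the control DC, Ndrg2-KO DC and blank hydrogel wounds, with 0 of 23, 2 of 31 and 5 of 32 cells. Endothelial-like cells were at 360 and 1196 CPM with 12 of 177 cells (6.78%, 3.55 to 11.5), and in the control DC wound their G2/M sum of 997 CPM was above that of NK cell-like cells. The endothelial-like cluster was named from 6 endothelial markers, and 4 mast cell, 3 mural and 2 Schwann markers also passed in it. Fibroblast-like cells were at 336 and 885 CPM with 67 of 1318 cells (5.08%, 3.96 to 6.41), and macrophage-like cells at 335 and 546 CPM with 12 of 1404 cells (0.855%, 0.442 to 1.49). The intervals of keratinocyte-like, T cell-like and NK cell-like cells overlapped. Keratinocyte-like cells were mixed in their markers: in the 3, 2 and 9 G2/M-positive cells of the control DC, Ndrg2-KO DC and blank hydrogel wounds the fibroblast markers summed to 16100, 45.6 and 27714 CPM and the keratinocyte markers to 10935, 23173 and 3147 CPM. The other keratinocyte-like cells held neutrophil markers at 15190, 14693 and 12476 CPM, and the part of these markers in the share of this class was not tested. These shares rested on the clustering: with 30 principal components the share was 39.6% in T cell-like and 9.63% in keratinocyte-like cells.

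Neutrophil-like cells, a class that should not divide, gave the background. Of 4846 such cells, 0 held 3 S members, which by the limit of 3 counts allows a share of up to 0.0619%, and 21 (0.433%, 0.268 to 0.662) held 3 G2/M members at a median depth of 3087 UMIs before thinning. Macrophage-like cells had a median of 12687 UMIs and fibroblast-like cells one of 28341 UMIs. The G2/M sum of neutrophil-like cells, 646 CPM, was led by Hmgb2 and by Cks2, a Cdk-binding protein that was highest in this class at 216 CPM. A G2/M sum alone therefore did not separate dividing classes, and without Stmn1, Tubb5 and Hmgb2 neutrophil-like cells, at 254 CPM, were still above macrophage-like cells, at 157 CPM. Over the wounds together, the 76 keratinocyte-like cells were highest for 13 of 19 S and 21 of 31 G2/M members, with the mixed markers given above. Some of these ranks were close, such as Kif11 at 21.4 CPM beside 21.2 CPM in T cell-like cells. Mcm5 was at 40.9 CPM beside 40.6 CPM in NK cell-like cells. The keratinocyte-like S sum was 1598, 1159 and 675 CPM by wound. In the blank hydrogel wound it lay below that of T cell-like (1000 CPM) and NK cell-like cells (1140 CPM). Hmgb2 was highest in T cell-like cells at 1219 CPM.

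**Figure D3:**
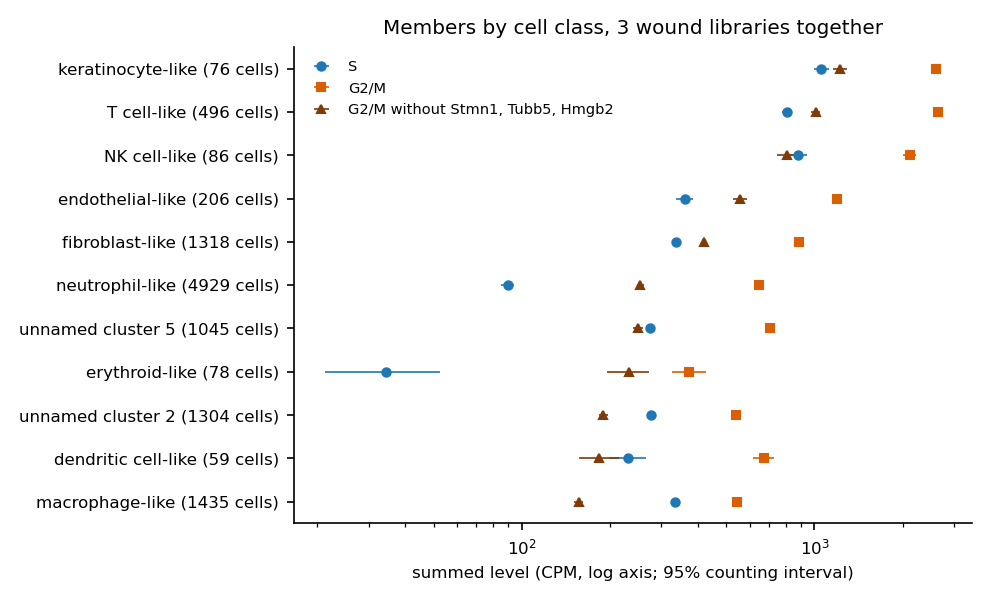
Summed CPM of the S members, the G2/M members and the G2/M members without Stmn1, Tubb5 and Hmgb2 in each class of wound cells over the 3 wound libraries (log axis), with exact 95% counting intervals and classes ordered by the last sum. Keratinocyte-like, T cell-like and NK cell-like cells lie to the right for all 3 sums over the wounds together, though NK cell-like cells were at 693 G2/M CPM in the control DC wound, while neutrophil-like cells have 89.6 S CPM beside 646 G2/M CPM.

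Fibroblast-like cells, 478, 501 and 339 in wounds of the control DC, Ndrg2-KO DC and blank hydrogel groups, differed between wounds for most members. Their S members summed to 254, 396 and 374 CPM and their G2/M members to 560, 1148 and 999 CPM. Against control DC wounds, the log2 ratio of the G2/M sum was 1.04 (0.999 to 1.07) with Ndrg2-KO DCs and 0.84 (0.80 to 0.88) with blank hydrogels, and that of the S sum 0.64 (0.58 to 0.70) and 0.56 (0.50 to 0.62). As the mean over cells, the blank hydrogel values were 0.54 (G2/M) and 0.28 (S). Both comparisons share the control DC library. Between Ndrg2-KO DC and blank hydrogel wounds the G2/M sum differed by 0.20 (0.16 to 0.24) and the S sum by 0.08 (0.02 to 0.14). Of the 49 members with enough UMIs, 43 were at least 1.5-fold higher with Ndrg2-KO DCs (13 of 18 S and 30 of 31 G2/M) and 0 were lower, against 14% of all genes higher and 4.41% lower in these cells. With blank hydrogels, 39 of 49 were higher (12 of 18 S and 27 of 31 G2/M) and 0 were lower, against 8.29% higher and 2.63% lower. In Ndrg2-KO DC against blank hydrogel wounds, 6 of 50 were higher and 1 was lower, against 6.02% and 5.18%. At 2-fold, 25 members were higher with blank hydrogels, against 3.3% of all genes. The control DC wound was thus the low one of the 3.

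Single members followed this order. Mki67 was at 9.49 CPM (147 UMIs) with control DCs, 34 CPM (492 UMIs) with Ndrg2-KO DCs and 22 CPM (237 UMIs) with blank hydrogels, and Birc5, an inhibitor of apoptosis that acts in the passenger complex, at 10.3, 34.6 and 31 CPM. Cdc20 was at 2.45, 10.7 and 10.8 CPM and Ccna2 at 2.84, 11.8 and 9.45 CPM. The blank hydrogel wound was near the Ndrg2-KO DC wound for these genes except Mki67. Cdkn3, at 1.94, 11.9 and 5.65 CPM, and Cdca3, a protein that promotes entry into mitosis, at 4.52, 24.1 and 15.1 CPM, had the largest log2 ratios with Ndrg2-KO DCs, 2.62 (2.05 to 3.23) and 2.41 (2.04 to 2.80). Of the S members, Pclaf was at 12.4, 35.6 and 33.2 CPM and Uhrf1 at 3.62, 8.64 and 10.2 CPM. Slbp (49.7, 45.0 and 46.5 CPM), Pcna (30.0, 32.8 and 32.5 CPM) and Cenpf (11.8, 16.0 and 12.9 CPM) stayed within 1.5-fold. Cdkn3, Cdca3, Cdca8, Kif11, Gins2 and Mki67 were the 6 members higher with Ndrg2-KO DCs than with blank hydrogels, and Ung (1.45 and 3.43 CPM) the 1 lower.

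**Figure D4:**
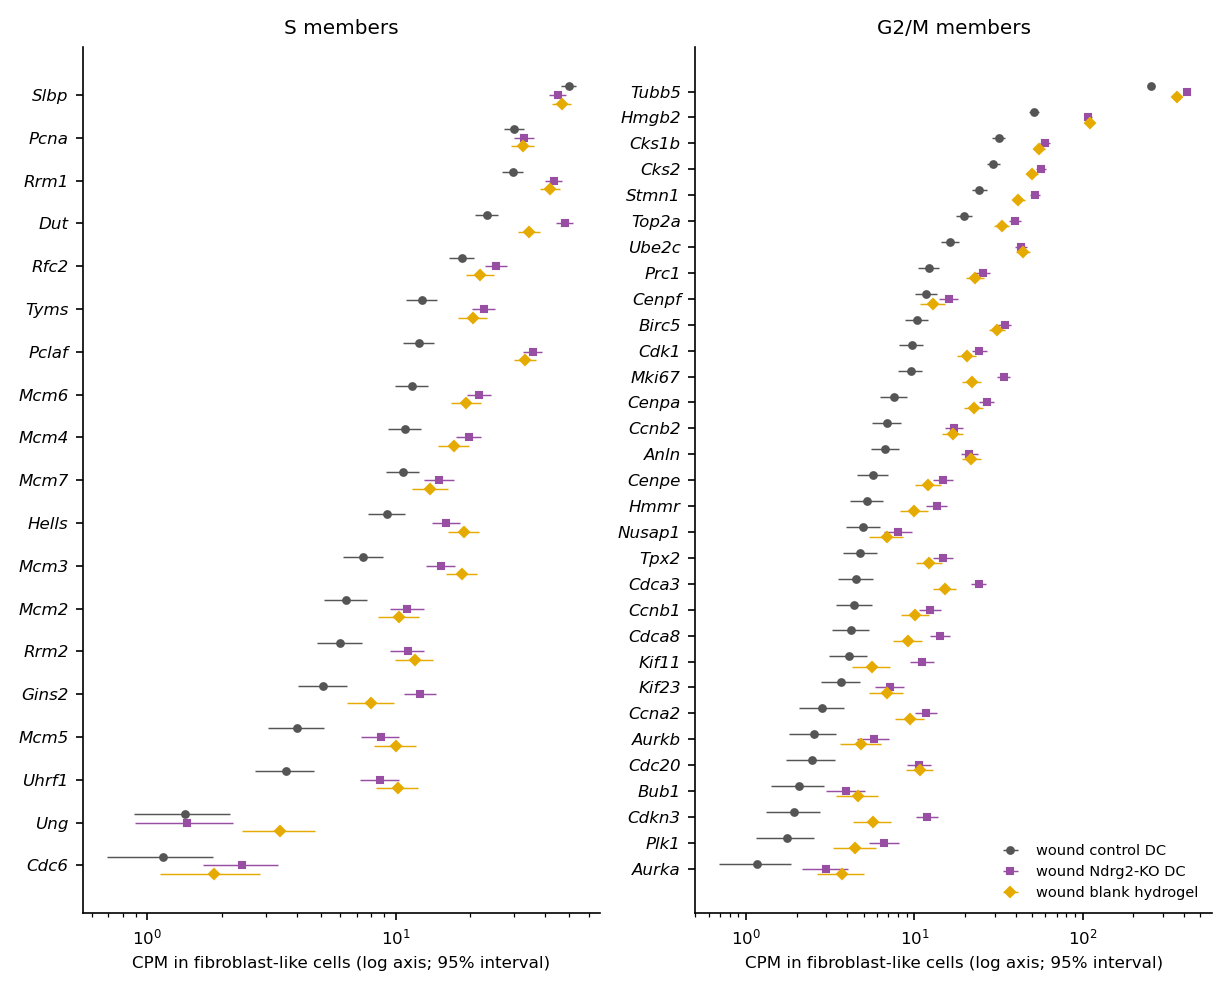
CPM of each S member (left) and G2/M member (right) in fibroblast-like cells of wounds with control DCs (circles), Ndrg2-KO DCs (squares) and blank hydrogels (diamonds) on log axes, with exact 95% counting intervals, ordered by the control DC value. Circles lie left of both other symbols for every member except Slbp (49.7, 45.0 and 46.5 CPM).

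By cells, 10 of 478 (2.09%, 1.01 to 3.81), 40 of 501 (7.98%, 5.76 to 10.7) and 17 of 339 fibroblast-like cells (5.01%, 2.95 to 7.91) held at least 3 G2/M members in wounds of the control DC, Ndrg2-KO DC and blank hydrogel groups at 1000 UMIs per cell. The intervals of the control DC and Ndrg2-KO DC wounds did not overlap and those of the other pairs did. They cover counting error over the cells of 1 library per wound, so this is no test between wounds. Within these positive cells the G2/M sum without Stmn1, Tubb5 and Hmgb2 was 4171, 3658 and 3844 CPM, and in the other fibroblast-like cells it was 96.0, 163 and 137 CPM. The cells were split by these same genes, so the levels on either side are a description. The positive cells held 59.3%, 74.9% and 74.3% of these UMIs. All 7 fibroblast markers were found in the positive cells of each wound, at a sum of 73554, 55939 and 38635 CPM, and 6 of 6 T cell markers were at 0 in those with control DCs and blank hydrogels, while 0 of 6 were at 0 in those with Ndrg2-KO DCs (23 UMIs, 13.6 CPM, beside 9.95 CPM in the other cells). Mural markers summed to 39.9, 288 and 655 CPM in the positive cells and to 85.2, 132 and 416 CPM in the others. The neutrophil markers summed to 58.7, 575 and 504 CPM in the other fibroblast-like cells and to 18, 349 and 40.6 CPM in the positive cells. The part of these markers in the difference was not tested.

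In macrophage-like cells the G2/M sum was higher with Ndrg2-KO DCs. The G2/M sum was 422 CPM with control DCs, 651 CPM with Ndrg2-KO DCs and 485 CPM with blank hydrogels, or 108, 194 and 140 CPM without Stmn1, Tubb5 and Hmgb2, and the S sum was 340, 350 and 301 CPM. Top2a was at 2.48 CPM (13 UMIs), 13.9 CPM (125 UMIs) and 5.65 CPM (28 UMIs), and Mki67 at 10.9, 23.7 and 20.8 CPM, while Pcna was at 139, 94.4 and 103 CPM. Of 29 members with enough UMIs, 19 were higher (10 of 15 S and 9 of 14 G2/M) and 0 lower with Ndrg2-KO DCs, against 13.4% and 5.56% of all genes. The other 21 had under 50 UMIs, and a member could pass through the Ndrg2-KO DC wound alone. This count is therefore a description and no support for a difference. In blank hydrogel against control DC wounds, 16 members had enough UMIs. Cells with at least 3 G2/M members numbered 1 of 370, 9 of 643 and 2 of 391, and the 9 cells held 40.8% of the G2/M UMIs counted without Stmn1, Tubb5 and Hmgb2. The other cells of that wound held 59.2%. UMIs of the 3 genes left out were not divided in this way. When the cell cycle genes were kept in the clustering, 6 members were higher and the S sum was -0.15 and the G2/M sum 0.34 in this comparison. Neutrophil markers in the macrophage-like cells with fewer than 3 G2/M members summed to 499, 2704 and 974 CPM, in the order of the G2/M sum, and their part in it was not tested. A cluster of 1304 cells led by Mmp12, Htr2b and Ppbp stayed unnamed, and its G2/M sum without Stmn1, Tubb5 and Hmgb2 was 132, 180 and 225 CPM, highest with blank hydrogels. In the blank hydrogel wound, 5 cells of this cluster held 42.3% of these UMIs. Its cells with fewer than 3 G2/M members were at 132, 179 and 134 CPM, highest with Ndrg2-KO DCs. Over all its cells, the log2 ratio of this sum in Ndrg2-KO DC against blank hydrogel wounds was -0.32 (-0.43 to -0.22), beside 0.48 (0.35 to 0.60) in macrophage-like cells. The difference was not tested.

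T cell-like cells went the other way, by an amount that rested on the processing. The S sum was 920 CPM with control DCs, 622 CPM with Ndrg2-KO DCs and 1000 CPM with blank hydrogels, and the G2/M sum was 3106, 2268 and 2795 CPM, or 1087, 876 and 1158 CPM without Stmn1, Tubb5 and Hmgb2. Stmn1 was at 234, 116 and 240 CPM, Pclaf at 111, 45.5 and 136 CPM and Top2a at 110, 54.3 and 121 CPM, so the Ndrg2-KO DC wound was the low one for each. Of 35 members with enough UMIs, 15 were lower and 1 higher (Ccnb1) with Ndrg2-KO DCs than with control DCs, against 7.18% of all genes lower and 9.78% higher in these cells. The share of cells with 3 or more G2/M members was 16 of 135 (11.9%, 6.93 to 18.5), 26 of 249 (10.4%, 6.94 to 14.9) and 10 of 106 (9.43%, 4.62 to 16.7), with overlapping intervals. The count of 15 was 9 without doublets, 4 with 30 principal components, 7 as the mean over cells and 6 at 2-fold, against 1.39% of all genes at 2-fold. The S difference between Ndrg2-KO DC and control DC wounds was smaller with 30 principal components and as the mean over cells. The G2/M difference was smaller as the mean over cells. No cluster was named T cell-like with the cell cycle genes in the clustering, over all barcodes or at a minimum of 300 UMIs. In the T cell-like cells with fewer than 3 G2/M members, neutrophil markers summed to 46.4, 3729 and 2633 CPM beside T cell markers at 3182, 3584 and 2689 CPM, and their part in these differences was not tested.

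Over whole wound libraries, 8 members were higher and 1 (Ung) lower with Ndrg2-KO DCs than with control DCs, against 9.44% of all genes higher and 17.3% lower, and 12 were higher and 0 lower with blank hydrogels, against 9.2% and 12.7%. In Ndrg2-KO DC against blank hydrogel wounds, 1 (Cdkn3) was higher and 1 (Ung) lower, against 4.59% and 6.6%. Cdkn3 was at 1.79, 4.35 and 2.89 CPM in wounds of the control DC, Ndrg2-KO DC and blank hydrogel groups, Cdca3 at 4.58, 9.30 and 8.57 CPM, and Cdc20 at 2.33, 4.24 and 5.44 CPM. These counts moved with the weight of the cells, since as the mean over cells 2 members were higher and 9 lower with Ndrg2-KO DCs, and 2 higher and 5 lower with blank hydrogels. The number higher with Ndrg2-KO DCs was 14 without doublets and 16 with median-ratio scaling, and that with blank hydrogels 21 without doublets and 20 over all barcodes. At 2-fold, 2 members were higher and 0 lower with Ndrg2-KO DCs (4.39% and 6.22% of all genes), and 1 was higher with blank hydrogels (3.71% higher and 3.89% lower). Col1a1, a fibroblast gene, was at 15668, 6252 and 6948 CPM and S100a8 at 3427, 11144 and 8806 CPM in the same libraries, so the mix of cells moved with the wound, and its part in these counts was not tested.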

How the data were processed

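The authors deposited UMI counts per gene and cell barcode, without normalization. They were made with Cell Ranger (3.1.0 for DCs and 6.0.0 for wounds per the file headers) on the mouse genome, mm10 per the study's methods, while the labels name mm9. Rows that name no gene held at most 1 UMI of a library and stayed out. Cells were kept when they had 300 genes or more, fewer than 100000 UMIs and less than 10% of UMIs from mitochondrial genes. The members and lists were chosen with earlier results of these data known. UMIs were summed over cells and scaled to 1000000 UMIs (CPM). Kept depths were 132574308 UMIs (untreated), 116461484 UMIs (VD3) and 143627482 UMIs (Ndrg2-KO) for DCs, and 29675507 UMIs (control DC), 49240341 UMIs (Ndrg2-KO DC) and 34905741 UMIs (blank hydrogel) for wounds.

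Exact intervals came from the Poisson distribution (CPM), from Clopper-Pearson (shares) and from the binomial given the total (log2 ratios). Samples were grouped by the treatment in the labels. Shares were taken after thinning without replacement to 2000 UMIs (DCs, leaving out 472, 1149 and 134 shallower cells) or 1000 UMIs (wounds, leaving out 25, 95 and 65). Doublets were scored with Scrublet in scanpy 1.11.5 and kept in, and the top 6% of scores were left out as an alternative. Cells were clustered with Seurat 5.3.0 in R 4.3.3 on the 2000 most variable genes, less the members and other cell cycle genes among them (1908 left for DCs, 1946 for wounds), with 15 principal components and Louvain resolution 0.5. A wound cluster took the name of the list with most markers at 50 CPM or more and 2-fold above the remaining cells, with 3 such markers as the minimum, and a cluster led by genes that go against its name stayed unnamed. Genes named outside the members came from the lists or were the 10 with the highest ratio between G2/M-positive and G2/M-negative untreated DCs. Promoter windows were those of RefSeq (GRCm38.p6) and gene positions those of GENCODE M21. Ratios, intervals and thinning were tested on simulated data. Alternatives covered the cell filters, doublets, scaling, the mean over cells, the UMI minimum, 2-fold, the depth and number of members, and the clustering. Leaving out cells under 1% mitochondrial UMIs or Stmn1, Tubb5 and Hmgb2, and applying the alternatives within wound classes, was chosen after seeing the data.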

Additional observations from a re-analysis of the deposited data

Results flagged for a closer look

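Effects of opposite sign in pairs of wound cell classes are given here as log2 ratios of summed CPM. With 1 library per wound, the difference between the classes was not tested in any pair. Against control DC wounds, Ndrg2-KO DC wounds had an S sum of 0.64 in fibroblast-like and -0.56 in T cell-like cells. Both values were smaller in size as the mean over cells, and the T cell-like value also with more principal components. In T cell-like cells with fewer than 3 G2/M members, neutrophil markers summed to 46.4 CPM with control DCs and 3729 CPM with Ndrg2-KO DCs. The part of these neutrophil markers was not tested. In the same comparison the G2/M sum was 1.44 (0.056 to 3.33) in erythroid-like cells, of which the control DC wound held 3 with 4 G2/M UMIs, and -0.45 in T cell-like cells. The T cell-like G2/M value was smaller in size as the mean over cells. Without Stmn1, Tubb5 and Hmgb2 the erythroid-like value was 0.72 (-0.67 to 2.62), so its sign was not beyond counting error. Blank hydrogel wounds had a G2/M sum of 2.34 in NK cell-like and -0.21 in keratinocyte-like cells against control DC wounds, and an S sum of 1.12 and -1.24 in these classes. Without the same 3 genes the keratinocyte-like G2/M value was -0.13 (-0.32 to 0.056), an interval that spans 0. Between Ndrg2-KO DC and blank hydrogel wounds, the G2/M sum was 0.43 in macrophage-like and -1.20 in NK cell-like cells, and the S sum was 0.78 in keratinocyte-like and -0.68 in T cell-like cells. In G2/M-positive keratinocyte-like cells of these 2 wounds, fibroblast markers summed to 45.6 and 27714 CPM, and keratinocyte markers went the other way. The part of these markers was not tested. NK cell-like cells numbered 23, 31 and 32, and keratinocyte-like cells 13, 18 and 45, in the control DC, Ndrg2-KO DC and blank hydrogel wounds.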

How the results depend on the processing

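Values are log2 ratios of summed CPM, numbers of members at 1.5-fold, or shares of cells with at least 3 members, with the reported value first and then each alternative that moved it beyond counting error or, for a number, beyond 1.5 times. VD3 DCs against untreated DCs gave an S sum of -0.62, and -0.73 under 5% mt- UMIs, -0.60 without doublets, -0.64 without cells under 1% mt- UMIs, -0.54 with median-ratio scaling and -0.31 as the mean over cells. VD3 DCs against untreated DCs gave a G2/M sum of -0.17, and -0.18 over all barcodes, -0.34 under 5% mt- UMIs, -0.13 without doublets, -0.18 without cells under 1% mt- UMIs, -0.094 with median-ratio scaling, 0.10 as the mean over cells and -0.11 without Stmn1, Tubb5 and Hmgb2. Ndrg2-KO DCs against untreated DCs gave an S sum of -0.73, and -0.75 over all barcodes, -0.57 under 5% mt- UMIs, -0.66 with median-ratio scaling and -0.64 as the mean over cells. Ndrg2-KO DCs against untreated DCs gave a G2/M sum of -0.67, and -0.72 over all barcodes, -0.42 under 5% mt- UMIs, -0.68 without doublets, -0.66 without cells under 1% mt- UMIs, -0.61 with median-ratio scaling, -0.59 as the mean over cells and -0.74 without Stmn1, Tubb5 and Hmgb2. Ndrg2-KO DCs against VD3 DCs gave an S sum of -0.11, and -0.14 over all barcodes, 0.16 under 5% mt- UMIs, -0.13 without doublets, -0.075 without cells under 1% mt- UMIs and -0.32 as the mean over cells. Ndrg2-KO DCs against VD3 DCs gave a G2/M sum of -0.50, and -0.54 over all barcodes, -0.080 under 5% mt- UMIs, -0.55 without doublets, -0.47 without cells under 1% mt- UMIs, -0.49 with median-ratio scaling, -0.70 as the mean over cells and -0.62 without Stmn1, Tubb5 and Hmgb2.

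Members higher in VD3 DCs against untreated DCs numbered 1, and 0 under 5% mt- UMIs, 2 as the mean over cells and 0 at 2-fold. Members lower in VD3 DCs against untreated DCs numbered 14, and 29 under 5% mt- UMIs, 3 as the mean over cells and 2 at 2-fold. Members lower in Ndrg2-KO DCs against untreated DCs numbered 36, and 21 under 5% mt- UMIs and 13 at 2-fold. Members higher in Ndrg2-KO DCs against VD3 DCs numbered 1, and 5 under 5% mt- UMIs, 0 as the mean over cells and 0 at 2-fold. Members lower in Ndrg2-KO DCs against VD3 DCs numbered 16, and 3 under 5% mt- UMIs and 6 at 2-fold.

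In untreated DCs the S share was 19.9%, and 22.2% under 5% mt- UMIs, 18.9% without cells under 1% mt- UMIs, 10.1% at 1000 UMIs per cell, 62.3% without thinning, 30.1% at 2 members and 9.06% at 5 members. In untreated DCs the G2/M share was 31%, and 34.1% under 5% mt- UMIs, 29.6% without doublets, 29.6% without cells under 1% mt- UMIs, 24% at 1000 UMIs per cell, 70.5% without thinning, 45.3% at 2 members and 23.5% at 5 members. In VD3 DCs the S share was 12.2%, and 14.5% under 5% mt- UMIs, 10.7% without cells under 1% mt- UMIs, 6.55% at 1000 UMIs per cell, 49.5% without thinning, 21.8% at 2 members and 5.07% at 5 members. In VD3 DCs the G2/M share was 27.1%, and 31.3% under 5% mt- UMIs, 24.7% without cells under 1% mt- UMIs, 22.4% at 1000 UMIs per cell, 69.4% without thinning, 43.8% at 2 members and 19.5% at 5 members. In Ndrg2-KO DCs the S share was 11.2%, and 10.4% over all barcodes, 14.7% under 5% mt- UMIs, 5.07% at 1000 UMIs per cell, 62% without thinning, 20.1% at 2 members and 4.38% at 5 members. In Ndrg2-KO DCs the G2/M share was 20.8%, and 19.6% over all barcodes, 24.3% under 5% mt- UMIs, 19.8% without doublets, 13.9% at 1000 UMIs per cell, 78.2% without thinning, 37.8% at 2 members and 13.1% at 5 members.

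Ndrg2-KO DC wounds against control DC wounds gave an S sum of -0.027, and -0.068 over all barcodes, -0.074 at 300 UMIs or more, 0.048 without doublets, 0.12 with median-ratio scaling and -0.42 as the mean over cells. Ndrg2-KO DC wounds against control DC wounds gave a G2/M sum of 0.36, and 0.33 at 300 UMIs or more, 0.46 without doublets, 0.51 with median-ratio scaling, 0.18 as the mean over cells and 0.46 without Stmn1, Tubb5 and Hmgb2. Blank hydrogel wounds against control DC wounds gave an S sum of 0.078, and 0.17 over all barcodes, 0.15 without doublets and -0.25 as the mean over cells. Blank hydrogel wounds against control DC wounds gave a G2/M sum of 0.34, and 0.46 over all barcodes, 0.37 at 300 UMIs or more, 0.45 without doublets, 0.37 with median-ratio scaling, 0.18 as the mean over cells and 0.52 without Stmn1, Tubb5 and Hmgb2. Members higher in Ndrg2-KO DC wounds against control DC wounds numbered 8, and 14 without doublets, 16 with median-ratio scaling, 2 as the mean over cells and 2 at 2-fold. Members lower in Ndrg2-KO DC wounds against control DC wounds numbered 1, and 0 without doublets, 9 as the mean over cells and 0 at 2-fold. Members higher in blank hydrogel wounds against control DC wounds numbered 12, and 20 over all barcodes, 21 without doublets, 2 as the mean over cells and 1 at 2-fold. Members lower in blank hydrogel wounds against control DC wounds numbered 0, and 5 as the mean over cells.

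Among T cell-like cells, the S share was 3.27%, and 18.8% with 30 principal components, 7.93% at 2000 UMIs per cell, 34.1% without thinning and 11% at 2 members. Among T cell-like cells, the G2/M share was 10.6%, and 39.6% with 30 principal components, 19% at 2000 UMIs per cell, 53.4% without thinning and 28.8% at 2 members. Among keratinocyte-like cells, the S share was 10.0%, and 3.74% with 30 principal components, 2.63% at 300 UMIs or more and 35.5% without thinning. Among keratinocyte-like cells, the G2/M share was 20.0%, and 9.63% with 30 principal components, 7.57% at 300 UMIs or more and 40.8% without thinning. Among fibroblast-like cells, the S share was 1.29%, and 4.1% at 2000 UMIs per cell, 70.7% without thinning and 3.95% at 2 members. Among fibroblast-like cells, the G2/M share was 5.08%, and 7.21% at 2000 UMIs per cell, 60.2% without thinning and 9.41% at 2 members. Among macrophage-like cells, the S share was 0.712%, and 1.77% at 2000 UMIs per cell, 44.8% without thinning and 3.77% at 2 members. Among macrophage-like cells, the G2/M share was 0.855%, and 0.438% with the cell cycle genes in the clustering, 5.02% at 2000 UMIs per cell, 54.8% without thinning and 6.84% at 2 members. Among neutrophil-like cells, the S share was 0.0%, and 0.0812% without thinning and 0.392% at 2 members. Among neutrophil-like cells, the G2/M share was 0.433%, and 1.46% at 2000 UMIs per cell, 4.28% without thinning and 6.79% at 2 members. In fibroblast-like wound cells, the S sum of Ndrg2-KO DC wounds against control DC wounds was 0.64, and 0.55 with median-ratio scaling and 0.49 as the mean over cells. In fibroblast-like wound cells, the G2/M sum of Ndrg2-KO DC wounds against control DC wounds was 1.04, and 0.99 with the cell cycle genes in the clustering, 0.98 with 30 principal components, 1.11 without doublets, 0.99 without cells under 1% mt- UMIs, 0.94 with median-ratio scaling, 0.96 as the mean over cells and 1.33 without Stmn1, Tubb5 and Hmgb2. In fibroblast-like wound cells, the S sum of blank hydrogel wounds against control DC wounds was 0.56, and 0.70 over all barcodes, 0.63 without doublets, 0.46 with median-ratio scaling and 0.28 as the mean over cells. In fibroblast-like wound cells, the G2/M sum of blank hydrogel wounds against control DC wounds was 0.84, and 0.76 with the cell cycle genes in the clustering, 0.77 with 30 principal components, 1.06 over all barcodes, 0.92 without doublets, 0.73 with median-ratio scaling, 0.54 as the mean over cells and 1.09 without Stmn1, Tubb5 and Hmgb2. Members higher in blank hydrogel wounds against control DC wounds, in fibroblast-like wound cells, numbered 39, and 25 at 2-fold. In macrophage-like wound cells, the S sum of Ndrg2-KO DC wounds against control DC wounds was 0.041, and -0.15 with the cell cycle genes in the clustering and -0.12 as the mean over cells. In macrophage-like wound cells, the G2/M sum of Ndrg2-KO DC wounds against control DC wounds was 0.63, and 0.34 with the cell cycle genes in the clustering, 0.46 as the mean over cells and 0.84 without Stmn1, Tubb5 and Hmgb2. Members higher in Ndrg2-KO DC wounds against control DC wounds, in macrophage-like wound cells, numbered 19, and 6 with the cell cycle genes in the clustering and 39 with no minimum of UMIs. In T cell-like wound cells, the S sum of Ndrg2-KO DC wounds against control DC wounds was -0.56, and -0.16 with 30 principal components and -0.36 as the mean over cells. In T cell-like wound cells, the G2/M sum of Ndrg2-KO DC wounds against control DC wounds was -0.45, and -0.13 as the mean over cells and -0.31 without Stmn1, Tubb5 and Hmgb2. Members lower in Ndrg2-KO DC wounds against control DC wounds, in T cell-like wound cells, numbered 15, and 4 with 30 principal components, 9 without doublets, 6 at 2-fold and 7 as the mean over cells.

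The causes of these shifts were not tested. Leaving out cells under 1% mt- UMIs or Stmn1, Tubb5 and Hmgb2, and the alternatives within wound classes, were chosen after seeing the data. No cluster was named T cell-like when the cell cycle genes were kept in the clustering, over all barcodes or at a minimum of 300 UMIs, so these gave no value for that class. No paired analysis was possible because each condition had 1 library. Intervals cover counting error only, and spread between animals or cultures is unknown. Shares near that of neutrophil-like cells cannot be read as division at 1000 UMIs per cell.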
